A study of Mus musculus with 6 samples.

Results

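The genes of the TGF-beta and activin ligands and receptors were examined in spheroids of 4T1, a mouse line of triple-negative breast cancer. The set held 10 genes of the 48820 in the deposited table, taken by gene symbol. They were the ligand genes Tgfb1, Tgfb2, Tgfb3, Inhba and Inhbb, the receptor genes Tgfbr1, Tgfbr2 and Tgfbr3, the inhibitory SMAD gene Smad7, and Tgfbi, which encodes a secreted matrix protein named for its induction by TGF-beta. RNA-seq was done on 3 libraries of wild-type (WT) 4T1 spheroids and 3 libraries of spheroids from a 4T1 line labelled as a LATS1/2 double knockout (dKO). LATS1 and LATS2 are the Hippo pathway kinases that restrain the coactivators YAP and TAZ. Both groups were grown as spheroids in RPMI medium with fetal bovine serum and antibiotics, and the labels name no other agent. The labels do not say whether the knockout line was 1 clone or how many clones were used. They call the libraries biological replicates without naming separate cultures, so a p-value here reflects only the scatter among these libraries, which may be technical.

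TGF-beta ligands are secreted in a latent form, bound to their own propeptide and, through it, to the latent TGF-beta binding proteins (LTBPs) of the matrix. Integrins and thrombospondin can release the active dimer. It binds the type II receptor TGFBR2, which recruits and phosphorylates the type I receptor TGFBR1, and TGFBR1 in turn phosphorylates SMAD2 and SMAD3, which enter the nucleus with SMAD4. Activins are dimers of the inhibin beta subunits encoded by Inhba and Inhbb, and they signal through their own type II and type I receptors to the same SMADs. In breast cancer the pathway is known both for restraining epithelial growth and for promoting invasion and the activation of fibroblasts.

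All tested members differed between the groups, 4 in each direction. Tgfb2, Inhba, Inhbb and Tgfbr2 were higher in dKO-labelled libraries, and Tgfb1, Tgfb3, Tgfbr1 and Smad7 were lower. A gene was called when its edgeR quasi-likelihood adjusted p was under 0.05. Of the 10 members, 8 passed the filter on low counts and were tested, and all 8 were called. The background was high: 9060 of 15807 tested genes (57.3%) were called, 28.6% of the tested genes as higher and 28.7% as lower. The ranges of the 3 and 3 libraries did not overlap for the 8 tested members, against 65.6% of all tested genes. The median log2 fold change was 0.38 over the 8 tested members and -0.01 over all tested genes. The median of the members falls in the gap between Smad7 at -0.69 and Tgfbr2 at 1.44, where no tested member lay. It therefore does not describe a shift of the members as a set. Tgfbr3 and Tgfbi did not pass the filter.

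The upstream sequences of a ligand gene and a receptor gene that were higher in dKO-labelled libraries, and of a ligand gene and a receptor gene that were lower, are shown to let the pairs be compared. Each run is the 250 bases before the RefSeq transcription start on GRCm38.p6, written 5′ to 3′ on the strand of the gene. The windows are chr1:186705990-186706239 (minus strand) for Tgfb2, chr9:116175364-116175613 (minus strand) for Tgfbr2, chr7:25686752-25687001 (plus strand) for Tgfb1 and chr4:47352972-47353221 (plus strand) for Tgfbr1. Capitals mark CAGAC or its complement GTCTG, the short motif that SMAD proteins can bind.
Tgfb2: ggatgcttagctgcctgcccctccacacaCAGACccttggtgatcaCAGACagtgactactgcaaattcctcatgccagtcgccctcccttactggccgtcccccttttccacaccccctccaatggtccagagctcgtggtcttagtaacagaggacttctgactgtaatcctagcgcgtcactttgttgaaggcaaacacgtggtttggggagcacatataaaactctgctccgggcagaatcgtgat
Tgfbr2: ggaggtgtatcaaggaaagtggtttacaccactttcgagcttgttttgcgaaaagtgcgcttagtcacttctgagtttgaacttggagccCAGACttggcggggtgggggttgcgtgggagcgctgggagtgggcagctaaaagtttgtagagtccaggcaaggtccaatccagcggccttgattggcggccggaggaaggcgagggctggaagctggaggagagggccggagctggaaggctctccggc
Tgfb1: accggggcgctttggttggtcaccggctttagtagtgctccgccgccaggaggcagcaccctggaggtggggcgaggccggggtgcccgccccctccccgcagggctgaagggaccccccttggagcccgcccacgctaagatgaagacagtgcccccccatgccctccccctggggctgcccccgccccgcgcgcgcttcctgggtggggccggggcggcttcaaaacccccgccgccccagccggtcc
Tgfbr1: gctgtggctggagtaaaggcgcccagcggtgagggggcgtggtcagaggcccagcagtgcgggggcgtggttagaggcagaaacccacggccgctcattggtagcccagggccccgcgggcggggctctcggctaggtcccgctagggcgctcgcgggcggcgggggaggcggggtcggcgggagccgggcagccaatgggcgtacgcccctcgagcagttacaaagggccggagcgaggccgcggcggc
The motif was in 3 of the 7 member windows searched. In the Tgfb2 window it began 221 and 204 bases before the start, and in the Tgfbr2 window 160 bases before it. The Tgfb1 and Tgfbr1 windows held none. Of 32851 promoter windows of this length in the table, 42.2% held at least 1 match, so its presence sets neither gene apart. Of the windows shown, those of the pair that was lower were richer in G and C. They stood at 75.2% for Tgfb1 and 74.8% for Tgfbr1, against 53.6% for Tgfb2 and 58.4% for Tgfbr2. The median was 52.4% over all windows. Of the windows searched but not shown, Inhba was at 43.2% and Inhbb at 68.0%, both called higher, and Tgfbi, not tested, at 62.4%. Whether G and C content goes with the direction of change was not tested. The letters GGAATG and CATTCC (TEAD factors, 12.6% of windows), TGANTCA (AP-1, 6.75%) and TGACGTCA (cAMP response element, 1.55%) were searched on both strands and were in none of the 7 member windows that were searched, those of Tgfb1, Tgfb2, Tgfbr1, Tgfbr2, Inhba, Inhbb and Tgfbi. A match describes the letters and not a bound site, and no match says only that the letters are not in this window.

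The libraries held 38194478 to 49630116 estimated counts each. Levels are CPM, the counts of a gene scaled to a common library size, with TMM scaling, and a floor of 12 counts, equal to 0.243 to 0.314 CPM per library, was used to read values near 0. Lats1 was at 158, 146 and 155 CPM in the WT libraries and at 51.5, 53.0 and 48.0 CPM in those labelled dKO. Lats2 was at 28.3, 30.4 and 22.7 CPM in WT and higher, at 86.7, 83.3 and 63.5 CPM, in dKO-labelled libraries. Exons of Lats2 share 2955 bases with Gm49361 on the same strand, which was not analysed here. A gene total cannot reveal a small deletion, so this level is no check of the Lats2 knockout, and each direction given here is between libraries as labelled. WT 2 and dKO 3 lay farthest from the others of their group, by a small margin: the mean root mean square difference in log2 CPM was 0.670 for WT 2 against 0.604 and 0.623, and 0.718 for dKO 3 against 0.664 and 0.675. Without both, 8 members were called, 4 in each direction. Epithelial markers were present in every library, with a summed level of 6233 to 6359 CPM in WT and 4992 to 5700 CPM in dKO-labelled libraries over 8 genes, of which 2 were higher, 4 lower and 2 not called. Of 10 fibroblast markers, 4 passed the filter, with 2 higher and 2 lower, and their summed level was 33.2 to 52.8 CPM in WT and 9.05 to 10.05 CPM in dKO-labelled libraries. Pdgfra, which made up most of the fibroblast sum in WT, fell from 38.1 ± 8.52 for WT to 2.40 ± 0.554 CPM for the other group. Pi16 was also called lower, while Postn and Col1a2 were called higher. Postn rose from 0.432 ± 0.482 to 6.14 ± 0.885 CPM, so the markers did not move together. Lum, Dpt and Thy1 had 0 counts in every library. Of 10 leukocyte markers, 4 passed, with 3 higher and 1 lower, and the sum was 16.2 to 53.5 CPM in WT and 82.1 to 214 CPM in dKO-labelled libraries. Csf1r, a macrophage growth factor receptor gene, made up most of the latter sum, with 6.25 ± 6.99 CPM for WT and 147 ± 72.9 CPM for the other group (edgeR adjusted p = 0.0183, and 0.0669 without WT 1). Its exons share 873 bases with Hmgxb3 on the other strand. Cd68 was at 2.15 ± 0.207 and 15.6 ± 1.80 CPM and Itgam at 0 and 0.375 ± 0.079 CPM, both called higher, and Cd14 was called lower. Itgam was near the floor, with 13, 13 and 20 counts in the dKO-labelled libraries. Exons of Itgam share 3450 bases with Gm49368 on the same strand, which had 96 counts over all 6 libraries. Adgre1, which was not tested, had 81 and 103 counts in dKO 1 and dKO 2 and 0 elsewhere. Ms4a1 and Cd3e had 0 counts in every library, and Ptprc had at most 17 counts. Of 8 endothelial markers, 2 passed, with 1 lower and 1 not called, and the sum was 21.7 to 25.9 CPM in WT and 3.23 to 6.14 CPM in dKO-labelled libraries, with Kdr, Emcn and Cldn5 at 0. Flt1, the endothelial marker called lower, made up most of that sum in every library. It fell from 22.4 ± 2.07 for WT to 4.24 ± 0.946 CPM for the other group. The fall of the endothelial sum thus describes mainly Flt1 and not the markers as a set. The part of these cell types in the results below was not tested. In such bulk samples, fewer cells of a type and less RNA per cell cannot be told apart.

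Tgfb3, a TGF-beta ligand gene (ENSMUSG00000021253, GRCm38 chromosome 12, 86056745 to 86079041), was the most abundant ligand gene of the set in WT. It stood at 146, 150.1 and 150.4 CPM in the WT libraries and at 14.7, 12.8 and 16.5 CPM in those labelled dKO. The WT libraries were close to each other, and every library labelled dKO was far below them. Its log2 fold change, labelled dKO minus WT, was -3.34 ± 0.10 (SE, n = 3 per group, edgeR adjusted p = 5.47e-08), the smallest adjusted p of the set. Exons of Tgfb3 share 163 bases with Gm37804 on the other strand, which had 28 counts over all 6 libraries, and 257 bases with Gm48008, which was not analysed here.

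Tgfb2, the ligand gene that needs betaglycan for efficient receptor binding (ENSMUSG00000039239, chromosome 1, 186622792 to 186705989), moved the other way. It was at 3.79, 4.86 and 3.92 CPM in WT and at 53.6, 52.7 and 48.3 CPM in dKO-labelled libraries. These ranges lay far apart, and the spread within each group was small beside the gap. The log2 fold change of Tgfb2 was 3.62 ± 0.13 (edgeR adjusted p = 1.21e-07), a mean of 12.3 times the WT level. Tgfb2 was thus low in WT but well above the floor, with 182 to 196 counts in each WT library.

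Tgfb1, the most widely studied ligand gene of the family (ENSMUSG00000002603, chromosome 7, 25687002 to 25705077), fell by less than Tgfb3. Its level was 60.6, 59.4 and 60.9 CPM in WT and 25.7, 24.6 and 27.9 CPM in dKO-labelled libraries. Neither group varied much, with a coefficient of variation of 1.32% in WT and 6.50% in the other group. The log2 fold change of Tgfb1 was -1.21 ± 0.09 (edgeR adjusted p = 4.9e-06).

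**Figure D1:**
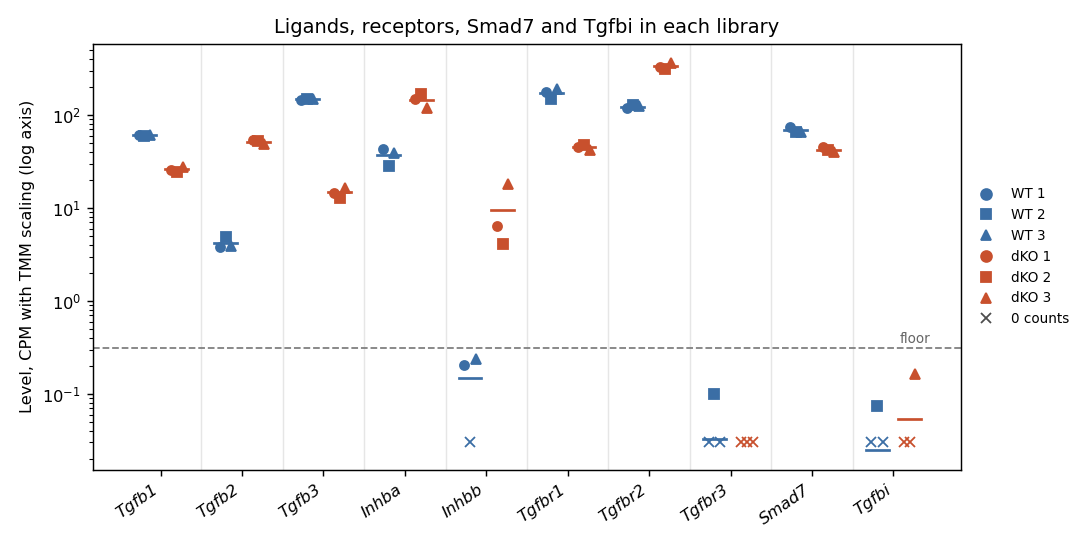
Levels of the 10 genes in each library, in CPM with TMM scaling on a log axis, with 1 symbol per library and a line at the group mean. Crosses at the bottom stand for 0 counts and the dashed line is the highest floor of any library, 0.314 CPM. Groups lie apart for the 8 tested genes, while Tgfbr3 and Tgfbi stay under the floor throughout.

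Levels of different genes were compared per length, as CPM per kilobase of merged exons. The 3 TGF-beta ligand genes summed to 55.9, 57.0 and 57.2 CPM per kilobase in the WT libraries and to 18.7, 17.8 and 18.8 in those labelled dKO. The summed level was thus 3.08 times higher in WT, at 56.7 ± 0.723 against 18.4 ± 0.547 (SD, n = 3), and the groups did not overlap (two-sided exact permutation p = 0.1, the smallest that 3 against 3 libraries allow). Tgfb3 made up 77.6% ± 0.280 of this level in WT and 23.5% ± 2.35 in dKO-labelled libraries, and the groups did not overlap (exact permutation p = 0.1). The share of Tgfb2 went from 1.28% ± 0.171 to 48.4% ± 3.51, and that of Tgfb1 from 21.1% ± 0.421 to 28.1% ± 1.24. The rise of Tgfb2 did not make up for the fall of Tgfb3 and Tgfb1 in transcript level.

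Which ligand gene led in dKO-labelled libraries depended on the length used. Merged exons of Tgfb1 span 5042 bases, and its longest principal transcript 2175 bases. With principal transcript lengths, chosen after the result was seen, Tgfb1 held 45.4% ± 1.63, Tgfb2 38.2% ± 3.05 and Tgfb3 16.4% ± 1.52 of the summed level in dKO-labelled libraries. In WT, Tgfb3 led with both lengths, at 60.6% ± 0.468 with principal transcripts. The summed level remained higher in WT, by 2.75 times.

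**Figure D2:**
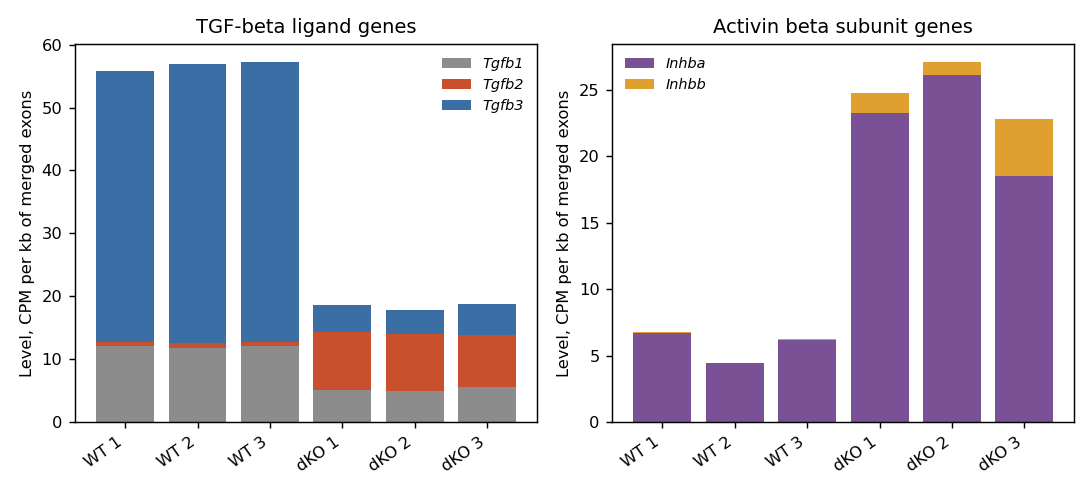
Stacked levels in CPM per kilobase of merged exons for the 3 TGF-beta ligand genes (left) and the 2 activin beta subunit genes (right), with 1 bar per library. Tgfb3 fills most of the WT bars on the left, which reach 55.9 to 57.2, while the bars of dKO-labelled libraries end at 17.8 to 18.8. On the right, Inhba forms most of each bar.

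The activin subunit genes were both higher in dKO-labelled libraries. Inhba, which encodes the beta A subunit of activin A (ENSMUSG00000041324, chromosome 13, 16011851 to 16031621), was at 42.8, 28.5 and 39.4 CPM in WT and at 149, 167 and 118 CPM in dKO-labelled libraries. WT 2 was the lowest WT library and dKO 3 the lowest of its group, and the groups lay well apart. The log2 fold change of Inhba was 1.97 ± 0.17 (edgeR adjusted p = 2.53e-05), and it ran from 1.81 to 2.10 with each library left out in turn.

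Inhbb, the gene of the beta B subunit (ENSMUSG00000037035, chromosome 1, 119415465 to 119422248), was under the floor in every WT library, with 10, 0 and 11 counts. In the dKO-labelled libraries it reached 6.46, 4.13 and 18.2 CPM, from 247, 168 and 783 counts. The highest value, in dKO 3, was several times the others, so its level within the group was uncertain. The fitted log2 fold change was 5.96 ± 0.88 (edgeR adjusted p = 0.000714). It was 5.10 without dKO 3 and 4.57 without WT 2 and dKO 3, with the gene called in both cases, and with WT under the floor its size is uncertain. Inhbb made up 6.12%, 3.58% and 18.8% of the activin subunit level per length in dKO 1, dKO 2 and dKO 3, and at most 0.895% in a WT library.

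The other ligand genes of the list were mostly silent. Of 9 genes, only Gdf11 passed the filter. Gdf11, a ligand gene close to that of myostatin, stood at 14.9 ± 4.39 CPM in WT and 10.6 ± 1.08 CPM in dKO-labelled libraries and was not called (edgeR adjusted p = 0.0699). It was called without WT 3, with log2 fold change -0.65 (edgeR adjusted p = 0.0313), and with a term for the replicate number (edgeR adjusted p = 0.0482). Inha, Nodal, Gdf3 and Mstn had 0 counts in every library, Inhbc had 4 counts in dKO 1 alone, and Gdf1 and Gdf9 exceeded the floor in 1 WT library each. Inhbe, another inhibin beta subunit gene, was not tested: dKO 2 had 33 counts, dKO 3 had 35 and each remaining library had 0.

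The receptor genes for TGF-beta went in opposite directions. Tgfbr2, the gene of the type II receptor that binds the ligand first (ENSMUSG00000032440, chromosome 9, 116084293 to 116175360), rose from 118, 128 and 124 CPM in WT to 329.7, 315 and 359.9 CPM in dKO-labelled libraries. All libraries labelled dKO exceeded every WT library by a wide margin. Its log2 fold change was 1.44 ± 0.07 (edgeR adjusted p = 7.93e-07).

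Tgfbr1, the gene of the type I receptor kinase that phosphorylates SMAD2 and SMAD3 (ENSMUSG00000007613, chromosome 4, 47353222 to 47414931), was at 178, 148 and 188 CPM in WT. It was at 45.8, 48.0 and 42.1 CPM in dKO-labelled libraries, and WT 2 was the lowest of the WT libraries. The log2 fold change of Tgfbr1 was -1.92 ± 0.10 (edgeR adjusted p = 1.05e-06). The ratio of Tgfbr2 to Tgfbr1 per length was 0.528, 0.687 and 0.524 in WT and 5.74, 5.24 and 6.83 in dKO-labelled libraries. With principal transcript lengths the ratio was 1.09 to 1.42 in WT and 10.9 to 14.2 in dKO-labelled libraries, so the order of the receptor genes in WT depended on the length, and their order in the other group did not.

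Tgfbr3, the gene of betaglycan, a coreceptor that presents TGF-beta to the type II receptor (ENSMUSG00000029287, chromosome 5, 107106570 to 107289629), was not detectable at this depth. It had 4 counts in WT 2 and 0 in the other 5 libraries, all under the floor. The rise of Tgfb2 was therefore measured in libraries with no detectable Tgfbr3 transcript.

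Among the other receptors, the type I receptor genes moved with Tgfbr1. Acvr1b, the gene of the main activin type I receptor, fell from 43.0 ± 3.42 to 14.1 ± 0.980 CPM (log2 fold change -1.61 ± 0.11, edgeR adjusted p = 3.59e-06). Acvr1, the gene of a type I receptor known for BMP and activin binding, fell from 55.2 ± 5.91 to 21.8 ± 5.36 CPM (edgeR adjusted p = 0.00023). Thus all 3 tested type I receptor genes of these lists, Tgfbr1 included, were lower, against 28.7% of all tested genes. Acvr1c and Acvrl1 had 0 counts in every library. Of the activin type II receptor genes, Acvr2b fell from 8.32 ± 1.84 to 3.50 ± 1.21 CPM (edgeR adjusted p = 0.00512). Acvr2a, at 22.0 ± 2.47 and 26.5 ± 3.51 CPM, was not called (edgeR adjusted p = 0.124), and its exons share 446 bases with Orc4 on the other strand, but it was called as higher without dKO 3 (edgeR adjusted p = 0.0353). Eng, the gene of the coreceptor endoglin and the most abundant of these receptor genes per length, rose from 56.6 ± 2.62 to 74.0 ± 7.81 CPM (log2 fold change 0.39 ± 0.09, edgeR adjusted p = 0.00686), and its exons share 61 bases with Fpgs on the other strand. Of the 8 other receptor genes, 5 were tested, with 1 higher, 3 lower and 1 not called.

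The order of the members by level per length differed between the groups and depended on the length used. With merged exons, the order in WT was Tgfb3 at 44.0 ± 0.708 CPM per kilobase, Tgfbr1 at 26.3 ± 3.19, Smad7 at 15.1 ± 1.04 and Tgfbr2 at 15.0 ± 0.593, which did not differ beyond their spread, then Tgfb1 at 12.0 ± 0.158. Inhba followed at 5.78 ± 1.17 and Tgfb2 at 0.724 ± 0.101, ahead of the genes under the floor. In the dKO-labelled libraries, also with merged exons, Tgfbr2 led at 40.9 ± 2.81, before Inhba at 22.6 ± 3.86. Smad7 at 9.34 ± 0.594 and Tgfb2 at 8.90 ± 0.487 lay within their spread of each other, and so did Tgfb1 at 5.17 ± 0.336 and Tgfb3 at 4.34 ± 0.543. Within each dKO-labelled library, however, Smad7 was above Tgfb2 and Tgfb1 above Tgfb3. Tgfbr1 stood between these pairs at 6.93 ± 0.456, and Inhbb came after them at 2.26 ± 1.77. With principal transcript lengths the order changed, and of these close pairs only Smad7 and Tgfb2 in the dKO-labelled group still lay within their spread. In WT, Tgfb3 still led, followed by Tgfbr2 at 35.4 ± 1.40 CPM per kilobase. Tgfbr1 at 29.8 ± 3.62 and Tgfb1 at 27.7 ± 0.366 came next and lay within their spread of each other, with Smad7 well below them at 15.9 ± 1.10. In the other group Tgfbr2, at 96.3 ± 6.61, and Inhba still led, and Tgfb1 at 12.0 ± 0.779 was above Tgfb2 at 10.1 ± 0.551, Smad7 at 9.87 ± 0.628 and Tgfb3 at 4.34 ± 0.543.

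Smad7, whose protein blocks receptor signalling and whose transcription is a known feedback response to it (ENSMUSG00000025880, chromosome 18, 75367529 to 75395935), showed the smallest change of the tested members. It was at 73.6, 65.7 and 65.2 CPM in WT and at 45.0, 42.1 and 39.6 CPM in dKO-labelled libraries. The groups did not overlap, but the gap was small beside those of the ligand genes. The log2 fold change of Smad7 was -0.69 ± 0.09 (edgeR adjusted p = 0.000182), and Smad7 was the tested member not called when the test asked for a change beyond 1.5-fold (edgeR adjusted p = 0.129). The other 7 were called by that rule, against 28.8% of all tested genes.

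Tgfbi, the gene of a secreted adhesion protein (ENSMUSG00000035493, chromosome 13, 56609523 to 56639562), was not detectable in either group at this depth. It had 3 counts in WT 2, 7 counts in dKO 3 and 0 in the other libraries.

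Of the 60 other pathway genes listed, 40 were tested, with 12 higher, 18 lower and 10 not called, and a median log2 fold change of -0.17. The background for each list of genes counted here was 28.6% of all tested genes called higher and 28.7% called lower. The SMAD genes that carry the signal changed unequally. Smad3 was at 447, 411 and 446 CPM in WT and at 60.8, 69.9 and 66.4 CPM in dKO-labelled libraries. Every library labelled dKO was far below the WT libraries, and the log2 fold change of Smad3 was -2.73 ± 0.08 (edgeR adjusted p = 4.38e-08). Smad2 rose from 44.5 ± 2.43 to 75.1 ± 3.49 CPM (log2 fold change 0.76 ± 0.08, edgeR adjusted p = 5.91e-05). Smad4, the common partner, was at 96.9 ± 12.5 and 149 ± 7.44 CPM (edgeR adjusted p = 0.000654). Per length, the ratio of Smad3 to Smad2 was 16.7, 14.9 and 15.0 in WT and 1.28, 1.41 and 1.47 in dKO-labelled libraries, so Smad3 was the more abundant of the pair in both groups.

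The list of SMADs and their regulators held 22 genes, of which 20 were tested, 8 higher, 8 lower and 4 not called. Ppm1a, which encodes a phosphatase that acts on SMAD2 and SMAD3, rose from 95.1 ± 3.24 to 162 ± 8.76 CPM (edgeR adjusted p = 2.28e-05). Tgif1, which encodes a corepressor of SMAD-driven transcription, fell from 140.0 ± 3.60 to 71.0 ± 1.78 CPM (edgeR adjusted p = 3.69e-06). Fkbp1a, whose product binds type I receptors, was the most abundant of the list per length over all libraries, though below Smad3 in WT. It was at 212 ± 11.9 and 221 ± 21.4 CPM and was not called (edgeR adjusted p = 0.611). Other negative regulators, named once their values were known, changed in both directions. Skil, a corepressor gene, went from 265 ± 5.89 to 112 ± 24.9 CPM (edgeR adjusted p = 0.00013). Pmepa1, whose product binds SMAD2 and SMAD3, went from 254 ± 5.67 to 99.8 ± 12.3 CPM (edgeR adjusted p = 4.42e-06), and Smad6, an inhibitory SMAD gene, from 12.3 ± 1.15 to 3.37 ± 1.15 CPM (edgeR adjusted p = 0.000249). The genes of ubiquitin ligases that act on receptors or SMADs went both ways. Smurf1 and Nedd4l were higher, at 149.7 ± 7.13 against 213 ± 12.2 CPM and at 15.1 ± 3.67 against 41.7 ± 1.76 CPM (edgeR adjusted p = 0.000312 and 7.19e-05). Smurf2 and Wwp1 were lower, at 173 ± 7.46 against 128 ± 23.1 CPM and at 118 ± 24.2 against 38.2 ± 2.11 CPM (edgeR adjusted p = 0.0138 and 1.99e-05). Against a 1.5-fold change, Smurf1 (edgeR adjusted p = 0.969) and Smurf2 were not called. Ski, a corepressor gene, was at 143 ± 11.4 and 145 ± 18.8 CPM and was not called (edgeR adjusted p = 0.878), but was called lower without WT 2 and dKO 3 (edgeR adjusted p = 0.0262). Bambi, the gene of a decoy receptor, had 0 counts in every library.

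**Figure D3:**
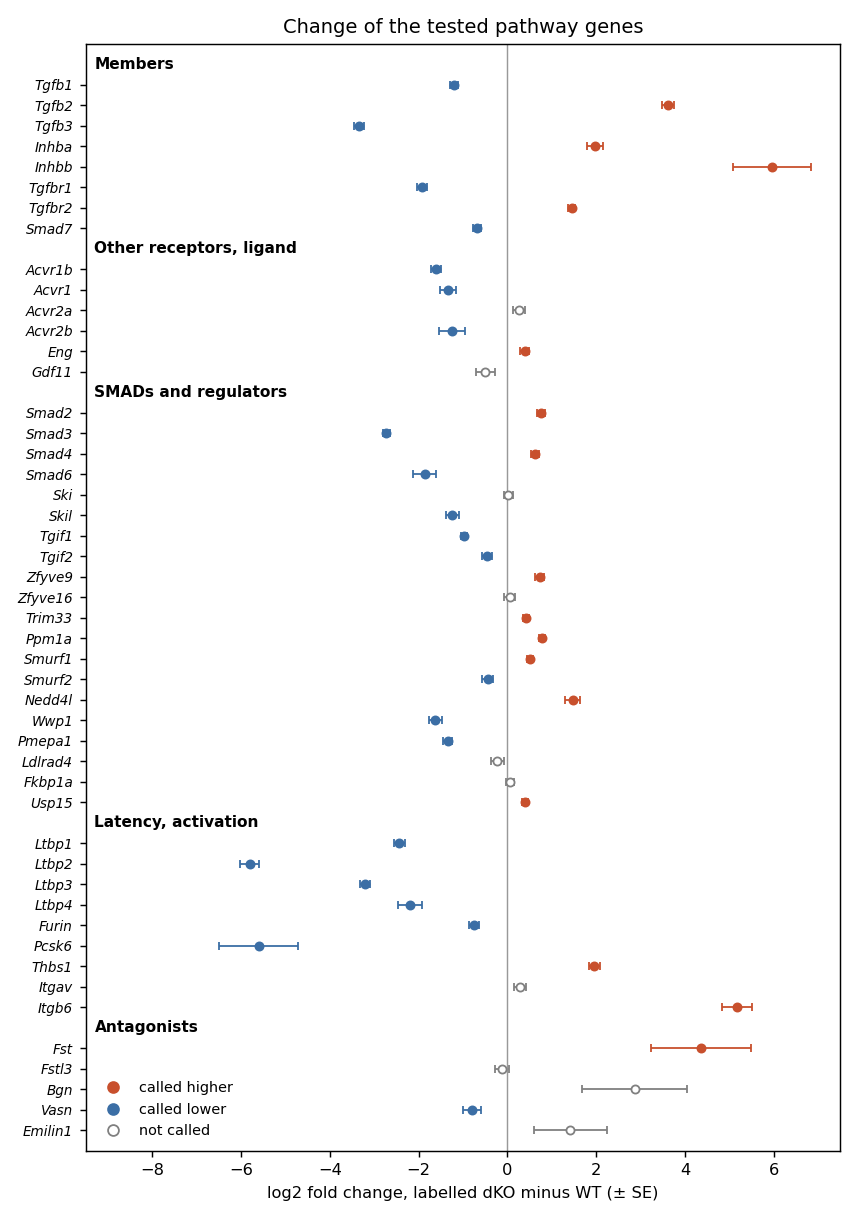
Log2 fold change (labelled dKO minus WT) ± SE from the edgeR fit for each tested member and each tested gene of the other pathway lists, in rows by role. Filled points were called and open points were not. The 4 LTBP genes, Pcsk6, Tgfb3 and Smad3 lie farthest to the left, and Inhbb, Itgb6, Fst and Tgfb2 farthest to the right. Genes near the floor in a group, such as Inhbb, Fst and Pcsk6, have the wide bars.

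The genes of the LTBPs, matrix proteins named for binding latent TGF-beta, were all lower, 4 of 4, against 28.7% of all tested genes. Ltbp3 was at 1974, 2121 and 1923 CPM in WT and at 219.9, 186 and 243 CPM in dKO-labelled libraries. Its log2 fold change was -3.21 ± 0.11 (edgeR adjusted p = 7.75e-08). Ltbp2, whose product is known to bind fibrillin rather than TGF-beta, was at 479, 546 and 459.6 CPM in WT and at 11.4, 8.86 and 6.42 CPM in dKO-labelled libraries (log2 fold change -5.80 ± 0.21, edgeR adjusted p = 2.69e-07). Exons of Ltbp2 share 764 bases with D030025P21Rik on the other strand. Ltbp1 fell from 350.2 ± 19.2 to 64.7 ± 10.2 CPM and Ltbp4 from 319 ± 52.3 to 69.7 ± 26.3 CPM (edgeR adjusted p = 5.54e-07 and 0.000499). Both were named once their values were known.

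Of the genes that act in the release of active TGF-beta, Thbs1 and Itgb6 were higher. Thbs1 is the thrombospondin gene whose product can activate latent TGF-beta. It was the most abundant gene of this list per length over all libraries, though below Ltbp3 in WT. Its level was 699.9, 917 and 694 CPM in WT and 2938, 2893 and 3164 CPM in dKO-labelled libraries. The log2 fold change of Thbs1 was 1.96 ± 0.12 (edgeR adjusted p = 1.61e-06). Itgb6, the beta subunit gene of the epithelial integrin that activates latent TGF-beta, was at 0.811, 1.21 and 0.366 CPM in WT and at 29.1, 30.2 and 26.2 CPM in dKO-labelled libraries. Its partner Itgav, at 195 ± 8.4 and 238 ± 49.1 CPM, was not called (edgeR adjusted p = 0.109), but it was called as higher without dKO 3 (edgeR adjusted p = 0.000623). Itgb8, another activating beta subunit gene, and Nrros had 0 counts in every library. Lrrc32, which encodes a cell-surface anchor of latent TGF-beta, was under the floor. Furin, the gene of a protease that cleaves the TGF-beta precursor, fell from 246 ± 41.1 to 145 ± 9.42 CPM, with an edgeR adjusted p of 0.00052, and was named once its value was known. Of the 12 latency and activation genes, 9 were tested, with 2 higher, 6 lower and 1 not called.

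**Figure D4:**
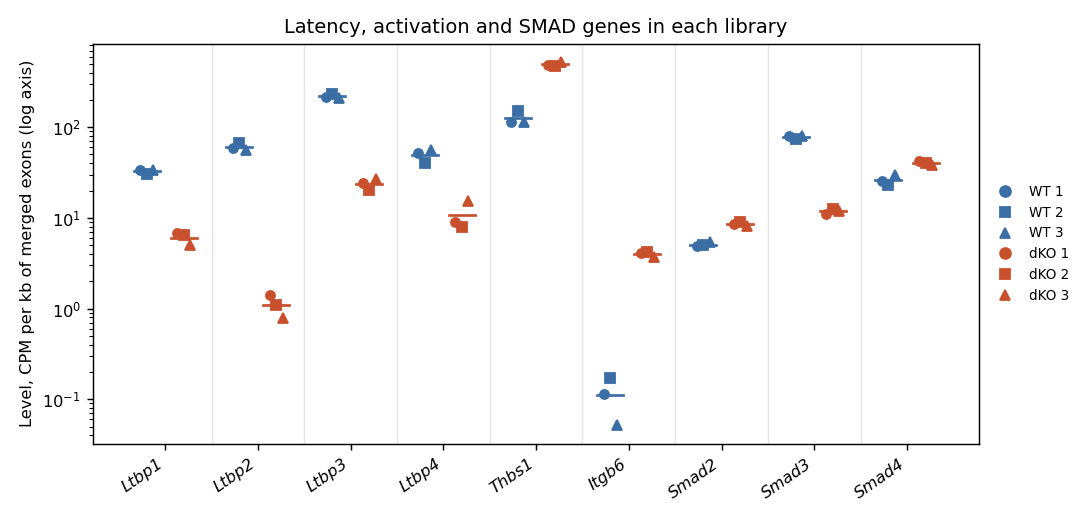
Levels in CPM per kilobase of merged exons, on a log axis, of the LTBP genes, Thbs1, Itgb6 and the SMAD genes that carry the signal, with 1 symbol per library and a line at the group mean. The LTBP genes and Smad3 are lower and Thbs1, Itgb6, Smad2 and Smad4 higher in dKO-labelled libraries, with no overlap between groups.

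Extracellular antagonists were few and low. Fst, the gene of the activin-binding protein follistatin, had 0.608 CPM in WT 1 and none in WT 2 and WT 3, and at 3.82, 4.27 and 5.14 CPM in dKO-labelled libraries (edgeR adjusted p = 0.0119). Fst was not called by DESeq2 (adjusted p = 0.0627) or without WT 2 and dKO 3 (edgeR adjusted p = 0.0555). Without WT 1, whose counts were the only ones in WT, its fitted log2 fold change went from 4.37 to 10.52. Vasn, which encodes the TGF-beta-binding protein vasorin, fell from 19.8 ± 2.48 to 11.4 ± 3.26 CPM, with an edgeR adjusted p of 0.00876, and its exons share 160 bases with Dnaja3. Fstl3, a follistatin-like gene and the most abundant of the list per length over all libraries, though below Vasn in WT, was at 14.9 ± 1.38 and 13.7 ± 1.97 CPM and was not called (edgeR adjusted p = 0.516). Of 9 antagonist genes, 5 were tested, with 1 higher, 1 lower and 3 not called.

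Of the genes listed as targets of SMAD signalling, more fell than rose. Of 19 listed targets, 15 were tested, with 4 higher, 10 lower and 1 not called, and the median log2 fold change was -1.47. Of all tested genes, 28.6% were called higher and 28.7% lower. The list mixes responses: Id1, Id2 and Id3 were included as BMP targets or as genes that TGF-beta represses. All 3 were lower and are part of the count and the median. Several of the listed genes are also driven by other pathways, among them Ccn2, a known YAP/TAZ target. Fn1, the fibronectin gene and the most abundant of the list per length over all libraries, though below Ccn2 and Junb in the dKO-labelled group, was at 7901, 5759 and 8324 CPM in WT and at 377, 365 and 608 CPM in dKO-labelled libraries. Its log2 fold change was -4.03 ± 0.25 (edgeR adjusted p = 1.01e-05). Hmga2, a chromatin protein gene, dropped from 592 ± 81.4 to 19.7 ± 2.92 CPM (edgeR adjusted p = 5.85e-08). Id3, an inhibitor of helix-loop-helix factors that BMP signalling induces, fell from 186 ± 14.6 to 15.7 ± 3.64 CPM (edgeR adjusted p = 4.28e-07). In contrast, Ccn2, a matricellular protein gene, rose from 19.8 ± 1.02 to 378 ± 17.5 CPM, with an edgeR adjusted p of 8.96e-09. Snai2 and Cdkn2b had 0 counts in every library.

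Among all tested genes, those with a pattern most like that of Tgfb3 were sought by the root mean square difference of log2 CPM over the 6 libraries, after centring each gene on its WT mean. The nearest were Ier5l at 0.0808, Pcyt1b at 0.0972 and Ltbp3 at 0.0998, and 206 genes lay within 0.5 of Tgfb3. The level of Pcyt1b, a phosphatidylcholine synthesis gene, was 133 ± 8.42 CPM in WT and 12.7 ± 0.658 CPM in dKO-labelled libraries.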

How the data were processed

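RNA-seq was done on 3 WT libraries and 3 libraries labelled dKO. The authors deposited an estimated count for each gene, as whole numbers that were not normalized, and the values deposited by sample equalled the series table in all 6 libraries. Per the submitters' processing notes, the tools were HISAT2 2.2.1 and StringTie 2.2.1 and the build was GRCm38 (mm10). How reads were counted, with which annotation and whether by strand, is not given in the sources used here, so reads of overlapping genes on opposite strands cannot be told apart. Genes at exactly 4 counts numbered 678 to 775 per library, against 542 to 607 at 3 and 273 to 367 at 5. A read pair may thus add 4 counts, though this was not tested. The floor of 12 counts would then stand for 3 read pairs. It covers counting error only. Symbols, positions and exon lengths came from GENCODE M21, which matched 48144 of 48820 identifiers, all members included.

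Differences were tested on all genes with edgeR 4.0.16 in R 4.3.3 (TMM, filterByExpr by group, robust quasi-likelihood F-test, genotype as the only term, Benjamini-Hochberg adjustment). The procedure was run on simulated counts in which only a small part of the genes had known changes. That simulation does not cover changes as widespread as those called here. Levels are mean ± SD of 3 libraries. The SE was taken as the size of the log2 fold change over the root of its F statistic. The edgeR and DESeq2 alternatives are given at the end. The members, gene lists and tests were chosen with earlier results of these data known. The rule named the members, Lats1 and Lats2, and in each other list the 2 genes of smallest adjusted p called in each direction and the gene of highest level per length. It also named the 3 genes nearest to the member of smallest adjusted p. Genes at the floor were named as such. A target gene that the rule named is not reported here. Smad4, Skil, Pmepa1, Smad6, Acvr2a, Acvr2b, Ltbp1, Ltbp4, Itgav, Furin, Smurf1, Smurf2, Nedd4l, Wwp1, Ski and Inhbe were named in addition, after their values were seen. Promoter sequences came from the RefSeq table for GRCm38.p6, which was used for 7 of the 10 members.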

Additional observations from a re-analysis of the deposited data

How the results depend on the processing

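The count of 8 called members was recomputed under 17 alternatives and was 8 in 15 of them, with 4 in each direction. It was 7 with a filter of 5 CPM in 3 libraries, which left out Inhbb, and 7 when tested against a 1.5-fold change, where Smad7 was not called (edgeR adjusted p = 0.129). Against that change 4556 of all tested genes (28.8%) were called in place of 9060. No tested member changed direction under any alternative run. With each library left out in turn, 8 members were called each time, other pathway genes called ran from 30 to 32, target genes called stayed at 14, and all genes called ran from 8041 to 9120. With a fit that had the replicate block, 8 members, 31 other pathway genes, 14 target genes and 8658 of all genes were called. The numbers in the labels did not pair the libraries: deviations from the group means correlated at -0.060, 0.048 and 0.082 for numbers 1, 2 and 3, and not every library correlated best with its own number. The difference in the summed ligand level, labelled dKO minus WT, was -38.3 CPM per kilobase of merged exons, -121 without division by length (in CPM) and -46.2 with principal transcript lengths. The difference in the Tgfb3 share was -54.1 percentage points and -44.2 with principal transcript lengths. With each library left out in turn these differences ran from -38.7 to -38.0 and from -55.3 to -53.0. Depth limits Inhbb in WT, Tgfbr3, Tgfbi and Fst, which were at or near the floor.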
